A study of Mus musculus with 10 samples.

Results

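The forebrain transcription factor genes Otx1, Otx2, Emx1, Emx2, Six3, Hesx1, Lhx2, Rax and Fezf1 were read by symbol from a table of RPKM values (reads per kilobase of transcript, scaled to the library total), 9 of 21937 genes, across 10 libraries of differentiating mouse embryonic stem (ES) cells. ES cells of a C57BL/6 background were grown in either of 2 cultures. In SFEB, where aggregates float in medium without serum and take a neuroectodermal course, the libraries came from wild-type (WT) cells, Tet3 knockout (KO) cells and Tet3 KO cells given Dkk, a secreted protein that blocks Wnt ligands at their receptors, each on day 6 and day 10. The other culture contained fetal bovine serum (FBS), a setting unfavourable to neural differentiation, and gave libraries of control cells and of cells overexpressing Tet3 on days 4 and 7. The KO cells carried floxed Tet3 alleles from which the floxed exon had been removed by transient Cre expression. The labels name no clone, no second line of any genotype, no overexpression construct and no dose or type of Dkk, so genotype and line cannot be told apart. Each condition and day has 1 library. A difference is therefore between single libraries, with the other day of the same culture set beside it, and an interval beside a ratio covers counting error only.

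The forebrain arises from the most anterior neural plate, which is protected from posteriorising Wnt, FGF and retinoic acid signals by antagonists secreted from neighbouring tissues. Otx2 is needed for the whole anterior brain, Hesx1, Six3 and Rax mark the earliest anterior plate and the eye field, and Lhx2, Emx2, Emx1 and Fezf1 act later in the eye field, cortex and diencephalon. Tet3 oxidises 5-methylcytosine, a modification found mainly at CG dinucleotides in mammalian DNA. Otx2 and Hesx1 are also expressed in the epiblast and in anterior visceral endoderm, so their RNA does not by itself mark neural cells.

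Promoter sequences of some of the genes the results turn on are shown because their CG content differs widely. They are the 250 bases before the annotated start, from RefSeq on GRCm38.p6, on the gene's own strand, and capitals mark CG. The deposited table was made on another build (mm9) and holds no coordinates. RefSeq promoter windows were taken for 7 of the 9 genes, 11 windows in all, since Otx2 has 4 annotated starts and Lhx2 has 2. Otx1 had no promoter entry, and Rax was left out beforehand. The Otx2 windows at chr14:48667509-48667758 and chr14:48667645-48667894 overlap, so some bases are counted in both. The windows printed are the outermost starts of Otx2, at chr14:48667645-48667894 on the minus strand, and of Lhx2, at chr2:38339031-38339280 on the plus strand. Those of Emx2 at chr19:59458440-59458689 (plus), Fezf1 at chr6:23248265-23248514 (minus) and Hesx1 at chr14:27000112-27000361 (plus) are also given.
Otx2: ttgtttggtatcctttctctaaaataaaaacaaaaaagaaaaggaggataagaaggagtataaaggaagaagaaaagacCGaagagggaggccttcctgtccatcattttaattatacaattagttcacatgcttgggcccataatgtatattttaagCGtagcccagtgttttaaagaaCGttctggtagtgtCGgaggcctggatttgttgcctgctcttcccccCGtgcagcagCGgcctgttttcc
Emx2: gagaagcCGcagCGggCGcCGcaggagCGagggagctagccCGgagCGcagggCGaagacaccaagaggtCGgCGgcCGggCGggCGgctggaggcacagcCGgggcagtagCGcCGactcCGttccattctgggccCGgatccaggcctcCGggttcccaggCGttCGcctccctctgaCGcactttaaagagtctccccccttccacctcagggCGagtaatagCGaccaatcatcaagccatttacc
Lhx2: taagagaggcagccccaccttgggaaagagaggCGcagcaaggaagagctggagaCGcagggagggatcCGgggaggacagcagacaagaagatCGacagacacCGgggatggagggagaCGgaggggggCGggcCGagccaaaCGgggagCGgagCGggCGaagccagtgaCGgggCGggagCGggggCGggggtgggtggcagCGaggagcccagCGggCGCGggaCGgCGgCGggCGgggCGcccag
Fezf1: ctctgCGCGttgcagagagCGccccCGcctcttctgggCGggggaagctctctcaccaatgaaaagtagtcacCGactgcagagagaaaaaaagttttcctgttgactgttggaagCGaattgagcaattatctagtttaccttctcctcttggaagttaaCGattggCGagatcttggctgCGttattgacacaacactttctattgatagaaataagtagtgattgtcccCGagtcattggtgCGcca
Hesx1: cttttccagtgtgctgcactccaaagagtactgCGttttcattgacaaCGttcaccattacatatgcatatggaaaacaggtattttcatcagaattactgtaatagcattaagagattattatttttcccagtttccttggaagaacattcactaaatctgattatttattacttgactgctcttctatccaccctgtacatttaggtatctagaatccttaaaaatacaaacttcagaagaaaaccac
Among 32851 promoter windows of the same length the median held 6 CG dinucleotides. The Otx2 window above held 6, Fezf1 12, Emx2 24 and Lhx2 25, and 90.4% of all windows held as few as Lhx2 or fewer. Hesx1 held 2, and 29% of windows held as few or fewer. The TCF/LEF core CTTTGA, the short sequence bound by the nuclear effectors of Wnt signalling, was searched on both strands and was in 0 of the 11 windows, against 13.8% of all windows. The OTX core TAATCC was in 1 of the 11, another Otx2 start at chr14:48665110-48665359, against 6.25% of all. DNA methylation was not measured in these libraries, and a match or its lack in these letters is a description only.

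Estimated depth, worked out from the smallest steps between RPKM values, ranged over 10200000 to 11300000 reads for 5 SFEB libraries and 17400000 to 43900000 for the FBS libraries, with 37000000 for the KO with Dkk on day 10. That last depth is the least certain, since 61.3% of its low values came out whole there against 48.3% at totals slightly off, and whole multiples of a total also give whole reads. In each library 11028 to 12152 genes reached 1 RPKM. Tet3 stood at 8.11, 6.59 and 7.64 RPKM in WT, KO and KO with Dkk on day 6, and on day 10 at 10.2, 14.3 and 13.1 RPKM. The KO lacks 1 exon while the table gives whole-gene values, so this does not check the genotype. In FBS, Tet3 was at 0.96 RPKM in control against 12.5 in overexpressing cells on day 4, and on day 7 at 5.87 and 14.1 RPKM. The cells are labelled as ES cells, and Pou5f1, which defines pluripotent cells, was at 1118 RPKM in FBS control cells on day 4 and between 3.06 and 58.1 RPKM in the SFEB libraries, where 10 pan-neural progenitor genes summed to 290 to 1110 RPKM. In these bulk samples fewer cells of a type and less RNA per cell cannot be told apart.

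Otx2 carried most of the RNA of the group. The 9 genes summed to 44.1 RPKM in WT, 8.66 in the KO and 96.3 in the KO with Dkk on day 6, and to 46.7, 12.1 and 134 RPKM on day 10. Without Otx2 the other genes summed to 12.1, 3.39 and 32.1 RPKM on day 6 and to 20.4, 5.01 and 60.7 on day 10. The order of the conditions was the same on both days, with and without Otx2. In the FBS culture the sum was 41.2 RPKM in control against 29.1 in overexpressing cells on day 4, and 12.2 and 53.4 RPKM on day 7, and Otx2 made up all but 2.4 to 4.33 RPKM of it. Of the 9 genes, 6 reached 1 RPKM in at least 1 SFEB library (Otx1, Otx2, Emx2, Lhx2, Six3 and Fezf1) and were compared there, and 3 did so in FBS (Otx2, Lhx2 and Hesx1). Six3 and Fezf1 passed this minimum only through the libraries with Dkk, so their being highest there follows in part from the filter, and Emx1 and Rax passed it nowhere.

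**Figure D1:**
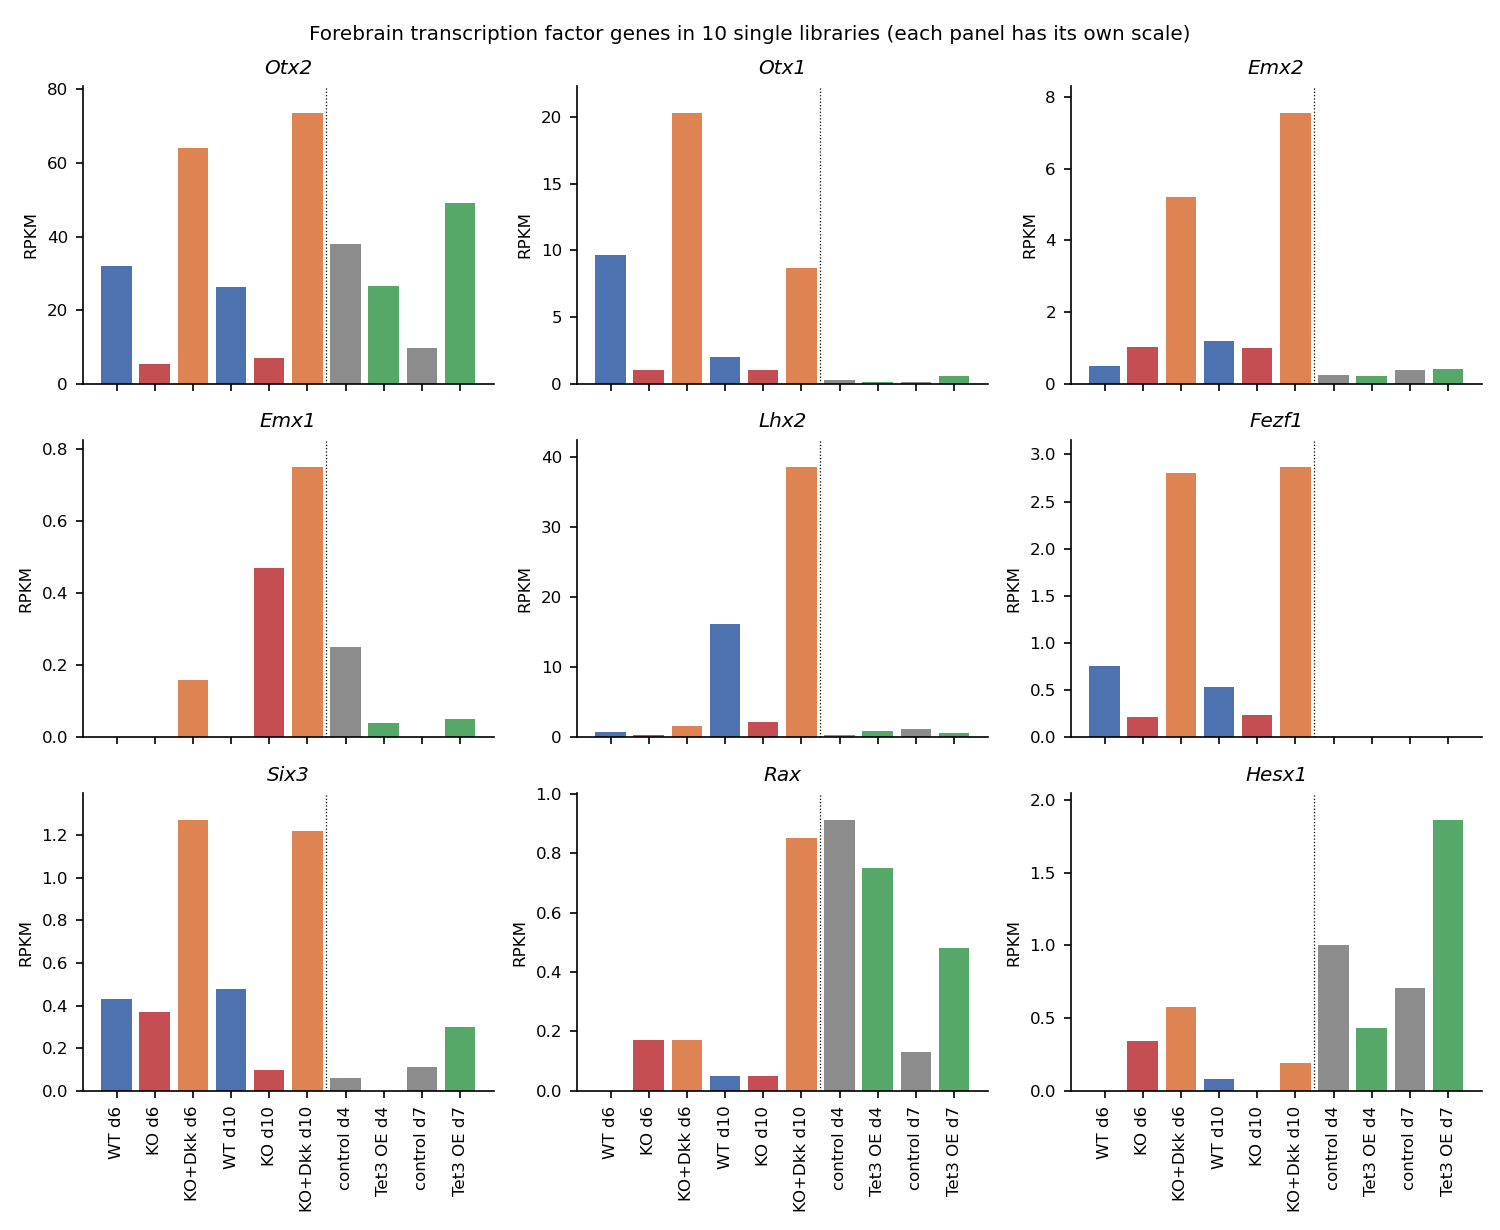
RPKM of each of the 9 genes (vertical axis, linear, its own scale in each panel) in the 10 libraries (horizontal axis), with SFEB libraries left of the dotted line and FBS libraries right of it; each bar is 1 library, d is day and OE is overexpression. Otx2 is high in both cultures, from 5.27 to 73.6 RPKM, while Otx1, Emx2 and Fezf1 stay at or below 0.59 RPKM in FBS.

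Otx2 and Otx1, paired homeobox factors of the forebrain and midbrain, were lower in the KO and highest with Dkk. Otx2 was at 32.0 RPKM in WT, 5.27 in the KO and 64.2 in the KO with Dkk on day 6, and on day 10 at 26.3, 7.10 and 73.6 RPKM. Its KO libraries were the lowest of the 6 and its Dkk libraries the highest, and the 3 conditions did not overlap across days. Each step in the order of its 6 levels exceeded counting error, the smallest being Dkk day 10 over Dkk day 6 at 1.15-fold (log2 interval 0.11 to 0.28). The KO held 6.08-fold less Otx2 than WT on day 6 (log2 interval -2.91 to -2.32) and 3.70-fold less on day 10 (-2.15 to -1.64).
With Dkk it stood above the untreated KO by 12.2-fold (log2 interval 3.33 to 3.90) and 10.4-fold (3.15 to 3.61). It stood above WT by 2.0-fold (0.87 to 1.13) and 2.80-fold (1.37 to 1.61).

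Otx1 was at 9.63 RPKM in WT, 0.99 in the KO and 20.3 in the KO with Dkk on day 6, and on day 10 at 1.99, 1.0 and 8.67 RPKM. The KO level was alike on the 2 days, while WT and the Dkk library were both lower on day 10 than on day 6. The KO held 9.73-fold less than WT on day 6 (log2 interval -3.92 to -2.74) but 1.99-fold less on day 10 (-1.70 to -0.37). With Dkk it was 20.5-fold above the KO on day 6 (3.83 to 4.98) and 8.67-fold on day 10 (2.61 to 3.71). Its day 6 excess with Dkk was the largest RPKM ratio of the 6 compared genes in that comparison.

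Emx2, a homeobox factor that patterns the cortex, was high only in the libraries with Dkk. It was at 0.49 RPKM in WT, 1.01 in the KO and 5.20 with Dkk on day 6, and on day 10 at 1.19, 0.99 and 7.55 RPKM. WT and KO overlapped across days, and the KO was above WT on day 6 (log2 interval 0.05 to 1.99) and not separable from it by counting on day 10 (-1.01 to 0.44). With Dkk it exceeded the KO 5.15-fold on day 6 (1.81 to 2.99) and 7.63-fold on day 10 (2.44 to 3.52), and WT 10.6-fold (2.60 to 4.23) and 6.34-fold (2.21 to 3.18). Emx1, its close relative in the dorsal telencephalon, was listed at 0 in both WT libraries and in the KO on day 6, and stood at 0.16 RPKM with Dkk on day 6, 0.47 in the KO and 0.75 with Dkk on day 10. The highest of these rests on about 43 estimated reads in the SFEB library of largest and least certain estimated depth, and Emx1 stayed below the level compared.

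Lhx2, a LIM homeobox factor of the eye field and cortex, differed from the others by time. It was at 0.77 RPKM in WT, 0.30 in the KO and 1.68 with Dkk on day 6, and on day 10 at 16.1, 2.16 and 38.6 RPKM. All 3 conditions were higher on day 10, by 20.9-fold in WT (log2 interval 3.69 to 5.14), 7.20-fold in the KO (1.70 to 4.22) and 23.0-fold with Dkk (4.07 to 5.0). On day 10 the KO held 7.46-fold less than WT (-3.35 to -2.49), and the library with Dkk held 17.9-fold more than the KO (3.78 to 4.59). On day 6 the same order held at about 7 estimated reads in the KO, 18 in WT and 41 with Dkk, with intervals of -2.88 to -0.05 for the KO against WT and 1.32 to 3.90 for Dkk against the KO.

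Fezf1, a zinc finger repressor of the early forebrain and diencephalon, was at 0.76 RPKM in WT, 0.21 in the KO and 2.80 with Dkk on day 6, and on day 10 at 0.53, 0.24 and 2.87 RPKM. The days did not separate by counting in any condition, and both Dkk libraries were above all others. Against the KO the ratio was 13.3 on day 6 (log2 interval 2.50 to 5.46) and 12 on day 10 (2.51 to 5.11), from about 5 and 6 estimated reads in the KO. For the KO against WT the interval was -3.72 to -0.47 on day 6 and reached 0.30 on day 10.

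Of the early anterior plate and eye field genes, Six3, a repressor of Wnt1 and of posterior fate, was at 0.43 RPKM in WT, 0.37 in the KO and 1.27 with Dkk on day 6, and on day 10 at 0.48, 0.10 and 1.22 RPKM. With Dkk it was 3.43-fold above the KO on day 6 (log2 interval 0.76 to 2.78), and 12.2-fold on day 10, where the KO value rests on about 3 estimated reads (2.18 to 6.06). WT and KO were not separable on day 6 (-1.39 to 1.12). On day 10 the KO held 4.8-fold less Six3 than WT (-4.86 to -0.66), on about 3 against 17 estimated reads. Rax, the retina and anterior neural fold homeobox gene, was listed at 0 in WT on day 6 and stood at 0.17 RPKM in the KO and with Dkk, and on day 10 at 0.05 in WT, 0.05 in the KO and 0.85 with Dkk. Hesx1, a repressor of the earliest anterior plate, was at 0 in WT, 0.34 in the KO and 0.58 with Dkk on day 6, and on day 10 at 0.08, 0 and 0.19 RPKM. Both stayed below 1 RPKM in all SFEB libraries, and Hesx1 was the one member whose highest level of all 10 libraries was in overexpressing FBS cells.

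**Figure D2:**
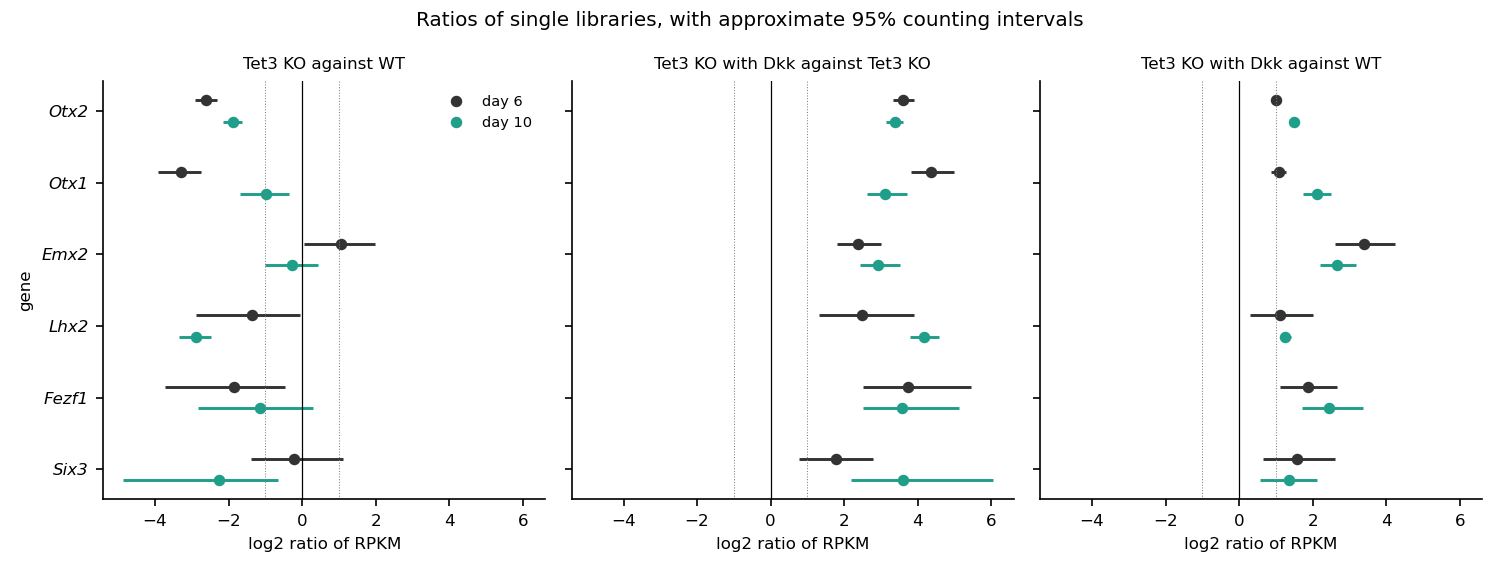
Log2 ratio of RPKM (horizontal axis, no pseudocount) between single SFEB libraries for the 6 compared genes, one panel per comparison, with day 6 in black and day 10 in green; lines are approximate 95% counting intervals and dotted lines mark 2-fold. All 12 ratios of the KO with Dkk against the KO lie above 2-fold, while the KO against WT spreads from Otx1 at 9.73-fold lower to Emx2 at 2.06-fold higher on day 6.

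Ratios were also counted after adding 0.5 RPKM to each value, a pseudocount that damps low values, with 2-fold as the limit and all genes at 1 RPKM or more in the culture as background. In the KO against WT on day 6, 2 of 9 members were lower (Otx1 and Otx2) and 0 higher, while 2.18% of 12912 genes were lower and 4.89% higher. On day 10, 2 were lower (Lhx2 and Otx2) and 0 higher, against 1.96% and 8.28% of genes. Otx2 was the one member past 2-fold on both days, and with a pseudocount of 0.1 RPKM in place of 0.5 the 2 lower members of day 6 became 4. With Dkk against the KO, 6 of 9 were higher and 0 lower on day 6, where 2.18% of genes were higher and 3.58% lower, and the same 6 were higher on day 10, where 1.70% were higher and 5.23% lower. Both shares of higher genes are small beside 6 of 9, with the reservation on Six3 and Fezf1 above. The members were chosen with earlier results of these data known, so this contrast describes the list and is no test of it. In the Dkk-treated KO against WT, 3 of 9 were higher on day 6 (Emx2, Fezf1 and Otx1) and 5 on day 10 (Emx2, Fezf1, Lhx2, Otx1 and Otx2) with 0 lower, where 1.59% and 4.60% of genes were higher and 0.984% and 1.69% lower. The count of 3 on day 6 depends on the pseudocount, since with 0.1 RPKM all 6 compared genes were higher, and Otx2 missed the limit at a log2 ratio of 0.99. The comparisons of the KO with WT and of Dkk with the KO share the KO libraries, and those with WT share the WT libraries, so they are set side by side and are not separate evidence.

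An additive limma model over all 10 libraries, with condition and day as terms within each culture, 3 residual degrees of freedom and Benjamini-Hochberg adjustment over 13757 genes, used the 2 days as the repeat. At an adjusted p under 0.05 it called 0 of the 7 members tested in each of its 4 comparisons, against 0.211% of genes (29) for the KO against WT, 0.131% (18) for Dkk against the KO, 0.00727% (1) for Dkk against WT and 0.0945% (13) for overexpression against control. At an unadjusted p under 0.05 there were 3 members for the KO against WT (Lhx2, Otx1 and Otx2), 6 for Dkk against the KO, 4 for Dkk against WT (Emx2, Fezf1, Otx1 and Six3) and 0 for overexpression. Over all 13757 genes such unadjusted values were common, 2017, 781, 1618 and 2702 in the same order, and Fezf1 and Six3 entered the model only through their Dkk libraries, so their values with Dkk follow in part from the filter. For Dkk against the KO the limma log2 difference was 2.20 (SE 0.29) for Fezf1 with an adjusted p = 0.0737, which ranged from 0.0397 to 1 over the settings run. It was 2.18 (SE 0.30) for Emx2 in limma with an adjusted p = 0.0856, with a range of 0.0393 to 1. For Otx2 limma gave 3.39 (SE 0.57) and for Otx1 3.21 (SE 0.51), both with an adjusted p = 0.128, the former ranging from 0.00235 to 1 and the latter from 0.0393 to 1. For the KO against WT limma gave Otx2 a difference of -2.16 (SE 0.57) with an adjusted p = 0.164, ranging from 0.00673 to 0.489. With the SFEB culture fitted alone limma called Otx2 in the KO against WT, and Emx2, Fezf1, Otx1 and Otx2 in Dkk against the KO, where that fit called 253 and 86 of 12912 genes.

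From day 6 to day 10, Lhx2 was the one member past 2-fold higher in all 3 SFEB conditions, where 16.9% of genes in WT, 21.1% in the KO and 17.6% with Dkk were higher. Otx1 was past 2-fold lower in WT, 4.84-fold by RPKM (log2 interval -2.69 to -1.87), and with Dkk, 2.34-fold (-1.38 to -1.07), where 7.98% and 6.82% of genes were lower. In the KO 0 members were lower, against 8.01% of genes, and Otx1 stood at about 1 RPKM on both days. Otx2 moved little with time beside its differences between conditions, 1.22-fold lower in WT and 1.35-fold higher in the KO.

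The members that moved did not all share 1 profile over the 6 SFEB libraries. Pearson's r of log2(RPKM + 0.5) between pairs of the 6 compared genes ran from 0.13 (Otx1 and Lhx2) to 0.95 (Six3 and Fezf1), with 0.89 for Otx1 and Otx2. These are descriptions over 6 libraries that share culture, day and genotype. The genes outside the group most like the mean standardised profile of the 6, among 10801 genes compared, were Folr1 (r = 0.989), Wnt8b (0.966), Jam3 (0.964), Mrpl11 (0.938) and Cntnap2 (0.931). Wnt8b, a Wnt ligand of the dorsal midline of the forebrain, was at 2.32, 0.77 and 13.7 RPKM in WT, KO and KO with Dkk on day 6, and on day 10 at 1.38, 1.06 and 14.4 RPKM. Folr1, a folate receptor, ranged only from 3.23 to 8.39 RPKM and Jam3, a junction protein, from 43.4 to 52.3 RPKM, so likeness of shape does not mean a like size of change. For Otx2 alone the nearest were Folr1 (0.985), Dmbx1 (0.979), Tal2 (0.978), Mrpl11 (0.955) and Cdkn3 (0.938). Dmbx1, a homeobox gene of the midbrain and diencephalon, was at 4.54, 0.29 and 6.65 RPKM on day 6, and on day 10 at 1.85, 0.59 and 6.36 RPKM.

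A wider list of 21 forebrain regulators, of which 14 reached 1 RPKM in SFEB, gave counts in both directions on day 10. In the KO against WT 4 were lower and 0 higher on day 6 (median log2 ratio -0.50, against 0.00 for all genes), and 2 were lower and 2 higher on day 10 (-0.22 against 0.06). With Dkk against the KO 7 were higher and 0 lower on day 6 (1.11 against 0.01), and 6 were higher and 3 lower on day 10 (0.26 against -0.01). Wnt8b and Barhl2, a homeobox gene of the diencephalon, had the highest ratios of Dkk to the KO among the list's genes past 2-fold on both days, with Barhl2 at 0.08 RPKM in the KO and 2.07 with Dkk on day 6, and on day 10 at 1.03 and 16.6 RPKM. Fezf2, the paralog of Fezf1, was at 1.44, 0.29 and 1.99 RPKM in WT, KO and KO with Dkk on day 6, and on day 10 at 0.57, 0.24 and 3.02 RPKM. Pax6, a gene of forebrain, eye and spinal progenitors alike, was highest in the KO on both days, at 21.6, 33.1 and 18.1 RPKM on day 6 and 23.8, 29.6 and 14.9 RPKM on day 10. Six6, an eye field relative of Six3, was at most 0.15 RPKM and Nkx2-1, of the ventral forebrain, at most 0.38 RPKM in SFEB. Vax2, another eye field and ventral gene, was at 2.70, 1.80 and 2.43 RPKM on day 6, and on day 10 at 7.21, 9.27 and 11.4 RPKM.

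Midbrain genes moved beside the group on day 6, while day 10 gave counts in both directions. Of 15 midbrain and midbrain-hindbrain boundary genes, 9 were lower and 1 higher in the KO than in WT on day 6 (median log2 ratio -1.42). On day 10, 6 were lower and 2 higher (-0.59). Over all genes 2.18% were lower and 4.89% higher on day 6, and 1.96% and 8.28% on day 10. With Dkk against the KO, 9 were higher and 0 lower on day 6, with 6 higher and 4 lower on day 10. Tal2, of the midbrain, was at 18.9, 1.27 and 21.3 RPKM in WT, KO and KO with Dkk on day 6, and on day 10 at 14.7, 2.56 and 41.2 RPKM, and Lmx1b at 8.27, 2.78 and 10.5 RPKM and at 12.1, 4.87 and 17.1 RPKM. Otx2 and Otx1 are expressed in the midbrain as well as the forebrain, and the part of midbrain cells in their levels was not tested.

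Posterior genes moved the opposite way. The 12 hindbrain genes summed to 21.9 RPKM in WT, 129 in the KO and 8.42 with Dkk on day 6 and to 40.9, 143 and 11.6 RPKM on day 10, with 10 and 9 of 12 higher in the KO than in WT and 11 and 10 of 12 lower with Dkk than in the KO. The 13 spinal cord and trunk Hox genes summed to 2.04, 116 and 0.67 RPKM on day 6 and to 3.45, 350 and 3.05 RPKM on day 10. Of these, 11 were higher in the KO than in WT and 12 lower with Dkk than in the KO, on each day. On day 6 the KO also held 233 RPKM of 6 paraxial mesoderm genes, against 0.86 in WT and 3.53 with Dkk, and on day 10 it held 9.24 against 1.31 and 3.51 RPKM. Their part in the lower share of forebrain RNA in the KO was not tested. Pan-neural genes were at 467, 290 and 410 RPKM in WT, KO and KO with Dkk on day 6, and on day 10 at 933, 1110 and 1100 RPKM.

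**Figure D3:**
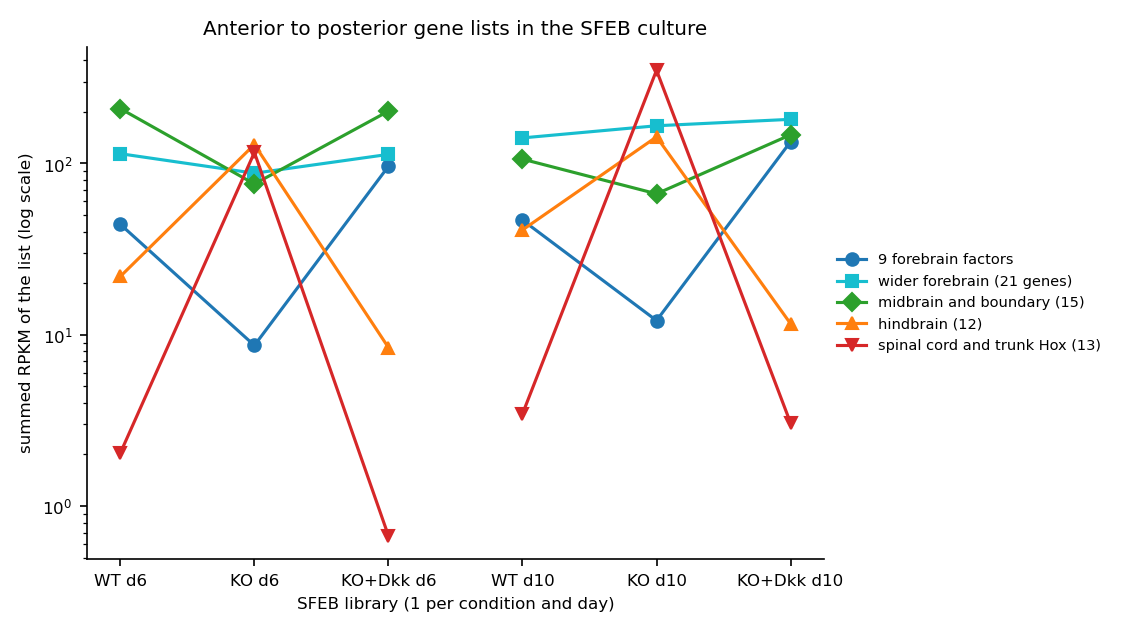
Summed RPKM (vertical axis, log scale) of the 9 forebrain factors and of 4 lists from forebrain to trunk in the 6 SFEB libraries (horizontal axis, 3 per day; lines join libraries of a day and carry no order in time). The 9 factors dip in the KO to 8.66 and 12.1 RPKM while spinal cord and trunk Hox genes peak there at 116 and 350 RPKM.

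Signals upstream of the forebrain were also listed. Of 9 compared posteriorising signals and their regulators, 6 were higher in the KO than in WT and 6 lower with Dkk than in the KO on day 6. On day 10 there were 1 higher and 2 lower, and 2 higher and 2 lower, too few to set against the shares over all genes. Cdx1 and Cdx4 passed the minimum only through the KO library of day 6, so their part in the day 6 counts follows in part from the filter. Aldh1a2, which makes retinoic acid, was past 2-fold on both days, at 0.39, 74.2 and 1.41 RPKM in WT, KO and KO with Dkk on day 6, and on day 10 at 0.70, 77.7 and 2.15 RPKM. Of 11 genes for signal antagonists that take part in head induction, 6 were higher and 0 lower in the KO than in WT on day 6. On day 10 there were 1 higher and 1 lower, too few to set against 8.28% and 1.96% of all genes. With Dkk against the KO 1 was higher and 4 lower on day 6, with 0 higher and 2 lower on day 10. On day 6 the neuron list had 0 higher and 1 lower of 9 in the KO against WT. Its median log2 ratio was -0.91, against 0.00 for all genes. On day 10 there were 1 higher and 0 lower (-0.10 against 0.06). The list summed to 177 RPKM in WT, 81.7 in the KO and 104 with Dkk on day 6. The sums on day 10 were 1650, 1440 and 1750 RPKM. With Dkk against WT on day 6, 0 were higher and 3 lower.

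Other cell types that express these genes were checked in SFEB. Retina and pigment epithelium genes, 7 in all, summed to 0.64 to 2.90 RPKM, with Crx at most 0.25 RPKM and Atoh7 listed at 0 in every library. Placode and pituitary genes, 10 in all, summed to 8.34, 31.6 and 11 RPKM in WT, KO and KO with Dkk on day 6 and to 10.4, 21.8 and 16.7 RPKM on day 10, highest in the KO, where Otx2 was lowest. Anterior visceral and definitive endoderm genes, 9 in all, summed to 12.5, 36.2 and 23.8 RPKM on day 6 and to 64.0, 72.4 and 185 RPKM on day 10, where Ttr alone was at 155 RPKM with Dkk, and Gsc stayed at most 0.72 RPKM. Epiblast and pluripotency genes, 8 in all, summed to 90.2, 90.8 and 136 RPKM on day 6 and to 47.0, 16.8 and 18.3 RPKM on day 10. With Dkk against the KO on day 10, 1 of 8 compared endoderm genes was higher (Ttr) and 2 were lower (Afp and Lhx1). The median log2 ratio of these genes was -0.63, against -0.01 for all genes. On day 10 the sum of this list was highest with Dkk through the 1 gene Ttr, so it does not stand for the list. Afp, of the same list, was lowest there, at 8.97 RPKM against 36.2 in WT and 23.8 in the KO. The epiblast sum on day 6 was also highest with Dkk. The part of endoderm or epiblast cells in the Otx2 level with Dkk was not tested.

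Noncoding genes beside 3 of the members were low. Otx2os1 was at 0.13, 0.13 and 0.25 RPKM in WT, KO and KO with Dkk on day 6, and on day 10 at 0.59, 0.25 and 1.90 RPKM. Six3os1 was at 0.27, 0.06 and 0.52 RPKM on day 6, and on day 10 at 0.27, 0.08 and 1.20 RPKM, and Emx2os reached at most 0.57 RPKM, with Dkk on day 10. All 3 were highest in the same library, the Dkk-treated KO on day 10. The strand setting of the counting is not given in the sources used here, so reads of Six3 or Emx2 and of an overlapping opposite-strand transcript may not be told apart.

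In the FBS culture Otx2 was the one abundant member. It was at 38.1 RPKM in control and 26.7 in Tet3-overexpressing cells on day 4, and on day 7 at 9.61 and 49.1 RPKM. The overexpressing library was the lower on day 4, by 1.43-fold (log2 interval -0.61 to -0.42), and the higher on day 7, by 5.11-fold (2.21 to 2.49). Control cells held 3.96-fold less Otx2 on day 7 than on day 4 (-2.12 to -1.86), while overexpressing cells held 1.84-fold more on day 7 (0.77 to 0.98). Hesx1 was at 1.0 RPKM in control against 0.43 in overexpressing cells on day 4 (-2.41 to -0.25) and at 0.71 and 1.86 RPKM on day 7 (0.52 to 2.20), with the same change of order. Lhx2 took the opposite order, at 0.34 RPKM in control against 0.86 in overexpressing cells on day 4 (0.63 to 2.01) and at 1.12 and 0.65 RPKM on day 7 (-1.47 to -0.09), on 26 to 69 estimated reads. Lhx2 passed the minimum of 1 RPKM in FBS only through the control library of day 7, so its being highest there follows in part from the filter.

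At 2-fold with the pseudocount, 0 of 9 members were higher and 0 lower with overexpression on day 4, where 1.72% of 12387 genes were higher and 3.49% lower. On day 7 there were 1 higher (Otx2) and 0 lower, where 6.96% were higher and 11.1% lower. Between the days, control cells had 0 members higher and 1 lower (Otx2), against 11.5% and 8.73% of genes, and overexpressing cells 1 higher (Hesx1) and 0 lower, against 3.50% and 1.20%. Only 3 of the 9 passed the minimum in FBS and could be called, so counts of 0 or 1 are too small to set against these shares. The additive limma difference for Otx2 was 0.89 (SE 0.57, adjusted p = 0.415, ranging from 0.365 to 0.712 over settings).

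The remaining members stayed low in FBS. Rax was at 0.91 RPKM in control against 0.75 in overexpressing cells on day 4, and on day 7 at 0.13 and 0.48 RPKM. Otx1 was at 0.31, 0.11, 0.13 and 0.59 RPKM in the same order, Emx2 at 0.25, 0.21, 0.38 and 0.40, Six3 at 0.06, 0, 0.11 and 0.30 and Emx1 at 0.25, 0.04, 0 and 0.05 RPKM. Fezf1 was listed at 0 in all 4 libraries, while it was above 0 in all 6 SFEB libraries. On day 7, Rax, Otx1 and Six3 were, like Otx2 and Hesx1, higher with overexpression, each beyond counting error and each below the level compared.

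Other genes moved with Otx2 in FBS. The 8 epiblast and pluripotency genes summed to 2280 RPKM in control against 2210 in overexpressing cells on day 4, and to 392 and 1780 RPKM on day 7. Of these, 7 of 8 were at least 2-fold higher with overexpression on day 7 and 0 lower, and 1 was higher and 1 lower on day 4. All 8 were lowest in the control library of day 7, as Otx2 was. Their highest library differed, with 2 of the 8 (Fgf5 and Dnmt3b) highest like Otx2 in overexpressing cells of day 7, 5 in overexpressing cells of day 4 and Tdgf1 in control cells of day 4. Fgf5, which marks the formative epiblast, was at 22.5 and 9.49 RPKM in control and overexpressing cells on day 4 and at 4.56 and 32.8 on day 7. The 9 anterior visceral and definitive endoderm genes summed to 17 and 8.02 RPKM on day 4 and to 162 and 66.5 on day 7, with 0 higher and 4 lower with overexpression on day 4, then 2 higher and 4 lower on day 7. Among them Gsc was at 2.73 and 0.38 RPKM on day 4 and at 1.22 and 6.67 on day 7, and Lhx1 at 1.64 and 0.02, then 3.70 and 15.3 RPKM, with the same change of order between the days as Otx2. Cer1, a secreted antagonist from the same endoderm, was at 0.61 and 0.15, then 3.0 and 24.7 RPKM. The part of epiblast-like or endoderm cells in the Otx2 and Hesx1 levels was not tested. In the same day 7 comparison 5 of 5 compared neuron genes and 3 of 5 compared wider forebrain genes were higher, 1 of the latter lower, and 9 of 11 compared spinal cord and trunk Hox genes and 5 of 5 hindbrain genes lower. Pax6 was at 1.57 RPKM in control against 5.71 in overexpressing cells on day 4, and on day 7 at 0.33 and 3.47 RPKM, and Gsx2, of the ventral telencephalon and other progenitors, at 0.16, 1.69, 0 and 0.86 RPKM. Sox1, of neural progenitors, was at 1.24, 16.3, 0.05 and 5.61 RPKM, so these genes were higher with overexpression on both days where Otx2 was higher on day 7 alone.

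**Figure D4:**
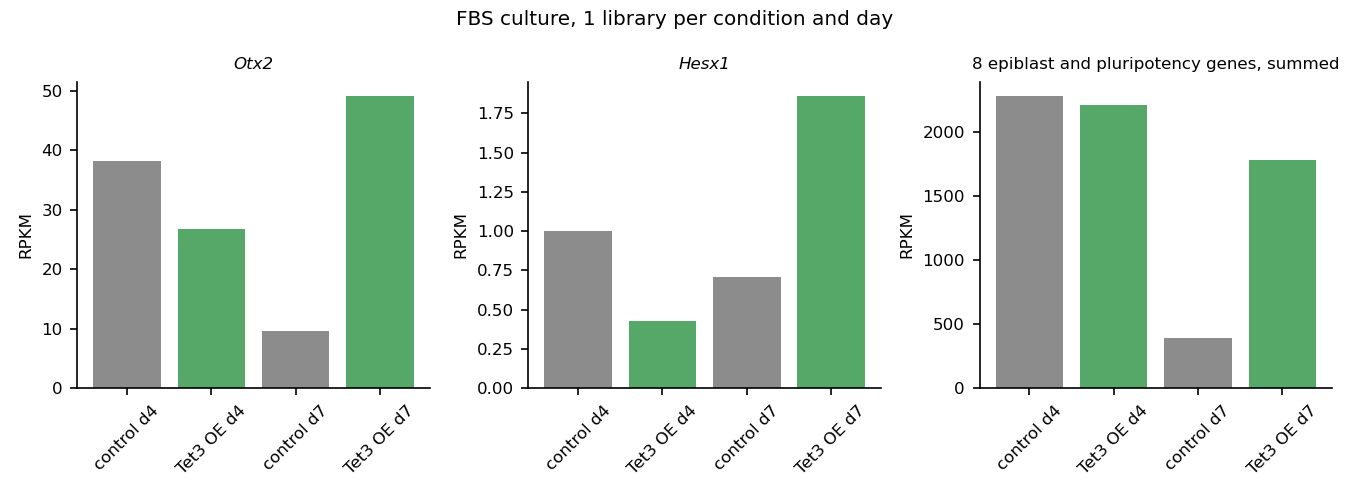
RPKM (vertical axis, linear, its own scale in each panel) of Otx2, of Hesx1 and of 8 epiblast and pluripotency genes summed in the 4 FBS libraries (horizontal axis); each bar is 1 library, control in grey and Tet3 overexpression (OE) in green. In all 3 panels the control library of day 7 lies below the overexpressing library of day 7, with Otx2 at 9.61 against 49.1 RPKM and the summed list at 392 against 1780 RPKM.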

How the data were processed

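The 10 libraries of total RNA were sequenced on a SOLiD instrument per the labels and are held in 1 table. The authors deposited RPKM values, with 2 decimals, for 21937 genes. HTSeq and mm9 are named in the submitters' processing notes; for the aligner, annotation, strand setting and multiply matching reads, nothing is given in the sources used here. Since RPKM is relative to the library total, more of an abundant transcript lowers the other values. Libraries were grouped by title, and each column matched 1 title; 0 column files were left out.

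Ratios of single libraries were taken as log2(RPKM + 0.5) for genes that reached 1 RPKM in any library of the culture, 12912 in SFEB and 12387 in FBS, and called at 2-fold, which understates changes of low genes. Depth was estimated from the steps of low RPKM values with GENCODE vM21 transcript lengths, and 59.7% to 73.4% of values came out whole to within 0.15 read, while 39.6% to 48.3% did so at totals slightly off. The resulting reads gave approximate 95% Clopper-Pearson intervals of the ratio without a pseudocount, which cover counting error only. An additive model was fitted in limma 3.58.1 (R 4.3.3, trended variance) and tested on simulated data. Other steps used Python 3.11.15, pandas 2.3.3, numpy 2.4.6, SciPy 1.17.1 and matplotlib 3.10.9.

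All 9 members are named. Of 14 context lists (144 genes, 143 found under their symbol and 1 under an older one), the genes named are mainly the 2 highest and 2 lowest past 2-fold on both days; Fezf2, Six6, Nkx2-1, Vax2, Fgf5, Dnmt3b, Tdgf1, Gsc, Lhx1 in FBS, Cer1, Ttr and the zero-level markers were chosen after their values were seen. Genes of like profile are the 5 with the highest Pearson r among genes reaching 5 RPKM. Members and lists were chosen with earlier results of these data known. Alternatives were pseudocounts of 0.1 and 1, no filter and a filter of 5 RPKM, TPM and median-ratio scaling, each culture fitted alone, the deepest SFEB library left out and, added after seeing the data, limma with no trend.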

Additional observations from a re-analysis of the deposited data

Results flagged for a closer look

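In the FBS culture 3 members stood on opposite sides of control on the 2 days, each beyond counting error, with 1 library per condition and day. The log2(RPKM + 0.5) ratio of Tet3-overexpressing to control cells was -0.51 on day 4 and 2.29 on day 7 for Otx2, and -0.69 and 0.96 for Hesx1. For Lhx2 it was 0.70 on day 4 and -0.49 on day 7, and Lhx2 passed the minimum of 1 RPKM only through the control library of day 7, which makes the latter ratio negative. The difference between the days was not tested, since no condition has a repeat within a day. The control level of Otx2 was itself 3.96-fold lower on day 7 than on day 4.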

How the results depend on the processing

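With 1 library per condition and day, a ratio has no replicate check, and depth limits Fezf1, Six3 and Emx1, which rest on few reads outside the Dkk libraries. No paired analysis was possible because the labels carry no replicate numbers to pair libraries by; the day is a term of the limma model. No called ratio of a member reversed in any setting. Of the counts of members at 2-fold, 86 stayed within 1.5 times and 10 did not. With a pseudocount of 0.1 RPKM, 4 members were lower in the KO than in WT on day 6, 6 were higher with Dkk than in WT on day 6, 1 was higher and 1 lower with overexpression on day 4, and 2 were higher on day 7. With TPM scaling, 1 member was higher in the KO than in WT on day 6 and 1 on day 10, 5 were higher with Dkk than in WT on day 6, and 3 were higher with overexpression on day 7, where 887, 1379 and 366 of 14014 genes and 1160 of 13435 were higher. With median-ratio scaling that last count was 2. Of the single-member values 259 stayed within their counting interval and 29 moved beyond it, mostly with a pseudocount of 1. Over all genes, the 282 lower in the KO on day 6 became 546 with a pseudocount of 0.1 and 533 with TPM scaling. TPM scaling placed the median of all genes at -0.106 for Dkk against the KO on day 10 and at -0.127 for overexpression on day 4. The main values were -0.007 and -0.069. With TPM scaling the sign of the median changed for Dkk against WT on day 6 (0.015 to -0.004) and day 10 (0.035 to -0.088). With median-ratio scaling it changed for the KO against WT on day 10 (0.059 to -0.062) and for overexpression on day 4 (to 0.010) and day 7 (-0.030 to 0.012). Under that scaling it also changed for Dkk against WT on day 6 (to -0.002) and day 10 (to -0.028), and for Dkk against the KO on day 10 (to 0.049). A filter of 5 RPKM also changed the sign for Dkk against the KO on day 10 (to 0.010).

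In limma, 1 member (Fezf1) was called for Dkk against the KO with no trend of the spread, a setting chosen after seeing the data. With each culture fitted alone 1 member (Otx2) was called for the KO against WT and 4 for Dkk against the KO, of 253 and 86 genes called among 12912. With the Dkk library of day 10 left out, 0 members were called in the 4 comparisons, and genes called fell from 29 to 3 for the KO against WT, 18 to 0 for Dkk against the KO, 1 to 0 for Dkk against WT and 13 to 2 for overexpression. The calls of limma across genes ranged from 2 to 253 for the KO against WT and from 0 to 86 for Dkk against the KO over the settings.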
